A study of Homo sapiens with 3 samples.

Results

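The 9 genes described here, HLA-B, HLA-C, HLA-E, HLA-F, B2M, TAP1, TAP2, PSMB8 and PSMB9, make or supply the class I antigen-presenting molecules of the cell. They were taken by name from the gene names printed in the scanner files, and all 9 were measured, by 17 probes, among 18615 genes in all. The cells were YB5, a single clone of the colon cancer line SW48 with 1 silenced GFP reporter driven by a CMV promoter, so that every value comes from 1 clone. The treated RNA came from cells given decitabine at 25 nM, carboplatin at 20 μM, or both at these doses, in 4 doses on days 1 to 4 with harvest on day 6. On each of 3 dual-colour arrays, all on 1 slide, it was set against RNA of cells given DMSO alone. Decitabine is a deoxycytidine analog that depletes DNA methyltransferase and so lowers DNA methylation, and carboplatin is a platinum compound that crosslinks DNA. With 1 array for each treatment the values have no replicate error, nothing was tested, and 3 arrays limit the precision. Treated RNA carried Cy3 and control RNA Cy5 on every array, so that a probe that takes up one dye better carries this into each of its changes, and the dye and the drugs cannot be told apart there.

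A class I molecule is a heavy chain (HLA-B, HLA-C, HLA-E or HLA-F here) paired with the invariant light chain B2M. It carries peptides to the cell surface, where T cells read them. The peptides are cut from cytosolic proteins by the proteasome, whose catalytic subunits PSMB8 and PSMB9 replace constitutive ones after interferon gamma, and are pumped into the endoplasmic reticulum by the transporter TAP1/TAP2. Interferon gamma raises these genes together, through IRF1, NF-κB and the NLRC5 complex, and loss of the class I pathway is common in colon cancer. TAP1, TAP2, PSMB8 and PSMB9 lie side by side on chromosome 6, and TAP1 is also known as a target of p53.

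The arrays are named by their labels, and the array with both drugs is called the combination array. A group of cell division genes did not follow these labels. The study listed 53 cell division, cell cycle and replication genes as lowered by carboplatin, from its own arrays of these cells. Of these, 40 were down past 1.5-fold on the decitabine-labelled array, where 4.67 % of all genes were. On the carboplatin-labelled array 4 were down (1.49 % of all genes), and on the combination array 37 (5.93 %). The study's list and the labels thus disagree on the single-drug arrays. The labels were kept, and whether they match the drugs given was not tested. Below, a drug named alone in a difference between arrays also stands for the label. On the decitabine-labelled array the control channel was low in columns 1 to 9, the edge of the array, which hold 10.1 % of the spots. Probes spotted 10 times there had a pooled SD of 0.23 (log2 change, 264 probes) with these columns and 0.078 without, against 0.075 and 0.077 on the other arrays. Of the 35 spots that carry the 17 probes, 2 lie in these columns, 1 of HLA-B and 1 of B2M. Of 9 colon epithelium markers, 7 were well above background in both channels of all 3 arrays, among them EPCAM, CDX2 and VIL1. KRT20 was so on the decitabine-labelled array alone, and the leukocyte marker PTPRC on no array.

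The heavy chain genes are close relatives, and their probes are shown first because the shared stretches limit what each value can be assigned to. The HLA-B probe A_23_P125107 (chr6:31323100-31323159, minus strand, GRCh37) and the HLA-F probe A_23_P145264 (chr6:29693013-29693072, plus strand) both read the coding sequence of the alpha-3 domain, the part of the heavy chain next to the membrane. They share 49 of 55 aligned bases, and capitals mark their longest common run of 20 bases.
HLA-B A_23_P125107: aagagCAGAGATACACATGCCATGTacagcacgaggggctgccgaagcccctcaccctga
HLA-F A_23_P145264: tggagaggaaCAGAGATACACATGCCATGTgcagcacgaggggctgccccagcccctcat

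The other HLA-B probe, A_24_P113674 (chr6:31322916-31322975, minus strand), and the HLA-C probe A_23_P95917, for which the files give no position, read the coding sequence of the transmembrane segment. They share a run of 15 bases, in capitals.
HLA-B A_24_P113674: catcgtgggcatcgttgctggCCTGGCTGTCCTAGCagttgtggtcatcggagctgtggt
HLA-C A_23_P95917: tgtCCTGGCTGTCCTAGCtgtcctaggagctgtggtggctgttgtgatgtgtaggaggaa

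Of the 45 pairs among the 10 heavy chain probes, these 2 have a common run of 15 bases or more. The name of a further probe is uncertain. The HLA-C probe A_23_P113716 is placed by the files at chr6:31321789-31321840, which is 1076 bases from the nearer HLA-B probe and 85097 bases from the HLA-C probe A_24_P298409 (chr6:31236633-31236692). Signals of HLA-B, HLA-C and HLA-F are therefore given by probe, and reads of one gene by the probe of another were not tested.

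Of the 9 genes, HLA-B, HLA-C and TAP1 passed 1.5-fold on at least 1 array in the processing used here. A gene was called changed at 1.5-fold, which is 0.58 on the log2 scale, and each gene was represented by its brightest probe. On the decitabine-labelled array 2 of the 9 genes were up, HLA-B and TAP1, where 10.6 % of all genes were up, and none was down, where 4.67 % were. On the carboplatin-labelled array none was up (2.76 % of all genes) and 1, HLA-C, was down (1.49 %). The HLA-C call rests on A_23_P113716 alone, the probe of uncertain name, and no other HLA-C probe passed 1.5-fold. On the combination array 1, TAP1, was up (7.47 %) and none down (5.93 %). Without the edge columns TAP1 alone was up on the decitabine-labelled array, where 5.08 % of all genes were up and 4.9 % down. The median log2 change of the 9 genes was 0.01, -0.13 and 0.06 on the decitabine-labelled, carboplatin-labelled and combination arrays, beside 0.0075, -0.0056 and 0.0037 over all genes. These counts and medians rest on the curve over brightness taken off each array. With median centring, which takes off none, 3, 5 and 2 genes were down and 1, 0 and 0 up, with medians of -0.50, -0.60 and -0.46. All 17 probes were well above background in both channels of all 3 arrays and no spot of theirs was saturated, so that all 9 genes have a measured level in treated and control cells.

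**Figure D1:**
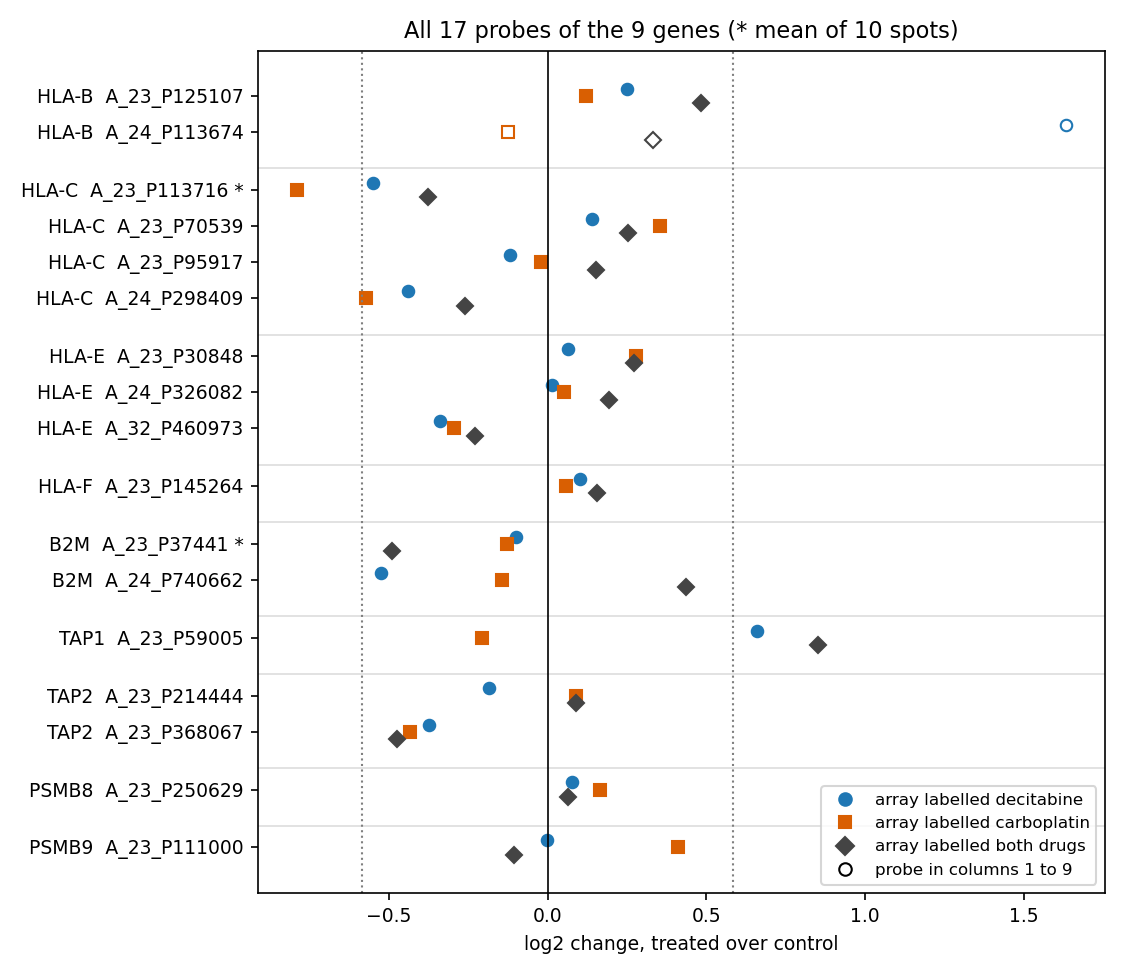
Log2 change (treated over control, x axis) of the 17 probes of the 9 genes (y axis) on the decitabine-labelled (circles), carboplatin-labelled (squares) and combination (diamonds) arrays; dotted lines mark 1.5-fold, open symbols the probe in columns 1 to 9, and * a probe averaged over repeated spots. TAP1 lies right of the line on the decitabine-labelled and combination arrays, the open circle of HLA-B at 1.63 is the edge probe, and 1 HLA-C probe lies left of the line, at -0.79 on the carboplatin-labelled array.

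TAP1, the subunit that with TAP2 forms the peptide pump, was the 1 member gene of 9 that was up by a probe outside the edge columns. Its probe (chr6:32813210-32813269, minus strand, column 38) read a treated signal of 17602 units on the decitabine-labelled array, 7681 on the carboplatin-labelled array and 16973 on the combination array. The control signals were 26557, 21887 and 20499. After normalization the log2 change was 0.66 (1.58-fold), -0.21 (0.87-fold) and 0.85 (1.81-fold). The treated level, on a log2 scale set between arrays, was 14.67 and 14.68 on the decitabine-labelled and combination arrays and 13.54 on the carboplatin-labelled array, and the 3 control levels lay at 14.02, 13.74 and 13.83 (SD 0.14, n = 3). The 2 high treated levels thus stand above all 3 control levels, and the treated level on the carboplatin-labelled array lies below them. With a plain median centring, which applies no curve over brightness, the changes were 0.04, -0.74 and 0.30, so that the rise over the control channel was no longer 1.5-fold on either array. The difference between arrays held: both drugs minus carboplatin was 1.06 on the log2 scale, and between 1.01 and 1.07 under the 9 other ways of processing. Of 7 leukocyte markers, CD68, a lysosomal protein, rose on the same arrays as TAP1 (1.00 and 1.53 without the edge columns, beside 0.40 on the carboplatin-labelled array), no other marker of the list was called on any array, and their part in the TAP1 values was not tested.

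**Figure D2:**
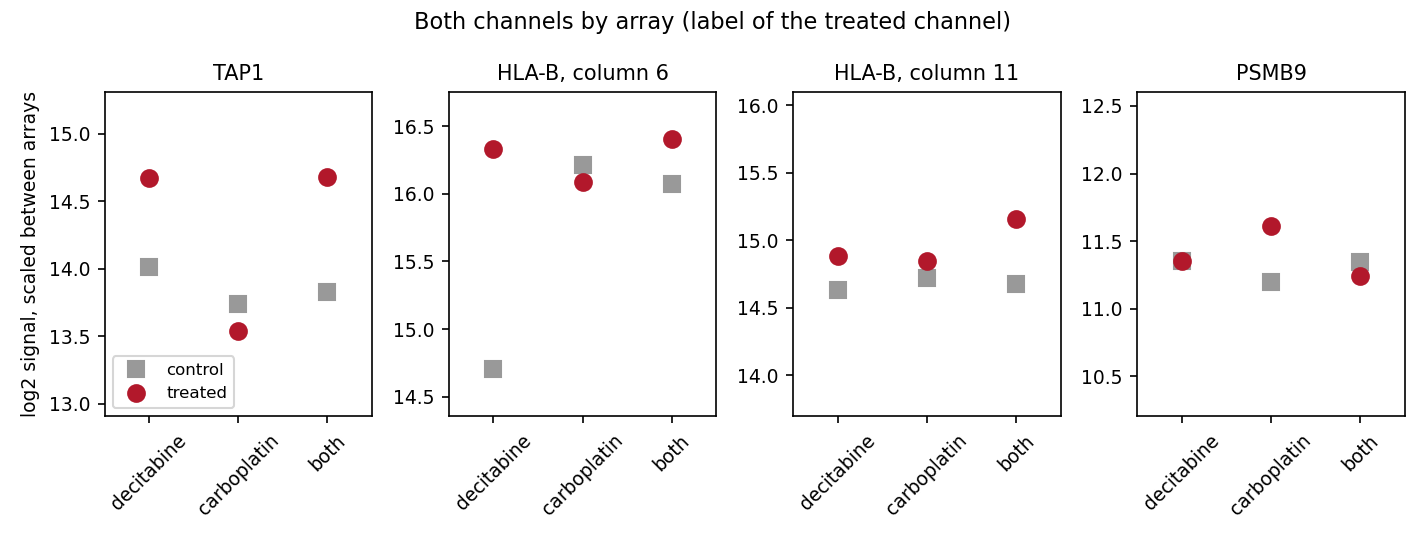
Control (grey squares) and treated (red circles) log2 signal, scaled between arrays, of 4 probes on the 3 arrays, named by the label of the treated channel; each panel spans the same range. The treated TAP1 level is 14.67 and 14.68 on the decitabine-labelled and combination arrays and 13.54 on the carboplatin-labelled array, and the HLA-B probe in column 6 has a low control level, 14.70, on the decitabine-labelled array.

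PSMB9, whose start site lies 488 bases from that of TAP1 on the opposite strand, stayed within 1.5-fold. Its probe (chr6:32823918-32823977, plus strand, GRCh37) gave log2 changes of -0.0018, 0.41 and -0.11 on the decitabine-labelled, carboplatin-labelled and combination arrays. The highest value of PSMB9 is thus on the array where TAP1 was lowest, and its 3 treated levels were 11.35, 11.61 and 11.24. The 250 bases before each start are shown because the genes share this short stretch of DNA, from RefSeq on GRCh38.p14. In capitals are both strands' matches to GAAANNGAAA, the core of the interferon-stimulated response element, and to the NF-κB consensus. The TAP1 stretch nearest to PSMB9 is chr6:32853705-32853954 on the minus strand, with 2 overlapping response element cores and 1 NF-κB match. The PSMB9 stretch is chr6:32853942-32854191 on the plus strand, with neither. The TAP1 matches lie between the start sites of both genes, beyond the 250 bases shown for PSMB9.
TAP1 promoter: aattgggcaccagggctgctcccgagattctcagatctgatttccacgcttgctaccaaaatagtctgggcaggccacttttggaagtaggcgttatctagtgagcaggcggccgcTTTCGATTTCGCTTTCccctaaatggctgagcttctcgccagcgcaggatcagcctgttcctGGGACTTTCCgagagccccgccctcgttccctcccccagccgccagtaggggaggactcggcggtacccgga
PSMB9 promoter: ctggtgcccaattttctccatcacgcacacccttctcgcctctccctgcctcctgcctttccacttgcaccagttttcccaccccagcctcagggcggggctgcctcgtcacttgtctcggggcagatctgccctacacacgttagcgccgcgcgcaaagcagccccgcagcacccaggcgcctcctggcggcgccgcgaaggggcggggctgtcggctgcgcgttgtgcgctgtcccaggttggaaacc

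Promoter sequence was used for 8 of the 9 genes, all but HLA-E, in 10 stretches of 250 bases, and a gene is counted where any of its stretches holds the motif on either strand. The response element core GAAANNGAAA was in that of 4, B2M, HLA-F, TAP1 and TAP2, and in 3 % of 35116 promoter stretches of the same length. The shorter GAANNGAAA was in 3, HLA-B, HLA-C and TAP2, and in 6.6 % of all, and in TAP2 it overlaps the core. The NF-κB consensus was in 4, B2M, HLA-B, HLA-C and TAP1, and in 10 % of all. GGGCGG, the GC box, was in 4 (42.6 % of all) and CCAAT in 6 (32 %). A match is a stretch of letters, and of the genes that hold the core TAP1 alone reached 1.5-fold on any array in the processing used here.

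HLA-B, a classical heavy chain, has the largest value of the 9 genes, and it rests on 1 spot in column 6. There the control signal of A_24_P113674 was 43947 units on the decitabine-labelled array, against 127164 and 100735 on the carboplatin-labelled and combination arrays, while the treated signal was 54880, 42454 and 52726. The log2 change was 1.63, -0.13 and 0.33. The control level of this probe had an SD of 0.84 over the 3 arrays (n = 3), and those of the other 16 probes SDs between 0.017 and 0.18. A_23_P125107, in column 11, gave 0.25, 0.12 and 0.48, with control levels of 14.64, 14.72 and 14.68. Both HLA-B probes were thus above 0 on the decitabine-labelled and combination arrays, where median centring put the brightest at 0.95 and -0.36, and the probe outside the edge columns was under 1.5-fold on all 3. In the authors' value table the edge probe reads 0.55, 0.43 and 0.68. The 5 genes most like HLA-B over the 3 arrays, by the Euclidean distance of the log2 changes among 12944 genes well above background throughout, were CEPT1, KNOP1, TMEM25, ABCC5 and GARNL3, at distances of 0.043 to 0.078. All 5 are represented by a probe with a spot in columns 1 to 9.

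HLA-C, the other classical heavy chain among the members, has 4 probes that part into 2 sets. The brightest, A_23_P113716, with 10 spots, gave a mean log2 change of -0.55 ± 0.058 (SD over 10 spots) on the decitabine-labelled array, -0.79 ± 0.079 (8 spots) on the carboplatin-labelled array and -0.38 ± 0.087 (8 spots) on the combination array. The SD covers repeated spots of 1 array, not separate cultures, and 2 spots on each of the last 2 arrays were outliers and left out. A_24_P298409 gave -0.44, -0.57 and -0.26. Both probes were below 0 on all 3 arrays and lowest on the carboplatin-labelled array. A_23_P70539 (chr6:31239099-31239408, minus strand, split over an intron) gave 0.14, 0.36 and 0.25, and A_23_P95917 gave -0.12, -0.02 and 0.15. Of the 4 probes A_23_P113716 alone passed 1.5-fold, on the carboplatin-labelled array, and the median of the 4 probes there was -0.30.

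The 2 lower HLA-C probes are also the brightest of the 17, with a mean log2 brightness of 17.31 and 17.17. Other probes at 17 and above lay below 0 as well, with medians of -0.14 (182 probes), -0.29 (167 probes) and -0.23 (148 probes) on the decitabine-labelled, carboplatin-labelled and combination arrays. At 15 to 16, where A_23_P95917 lies, the medians were 0.06, 0.03 and 0.02. The part of brightness, of the dyes or of HLA-B RNA in the HLA-C values was not tested.

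**Figure D3:**
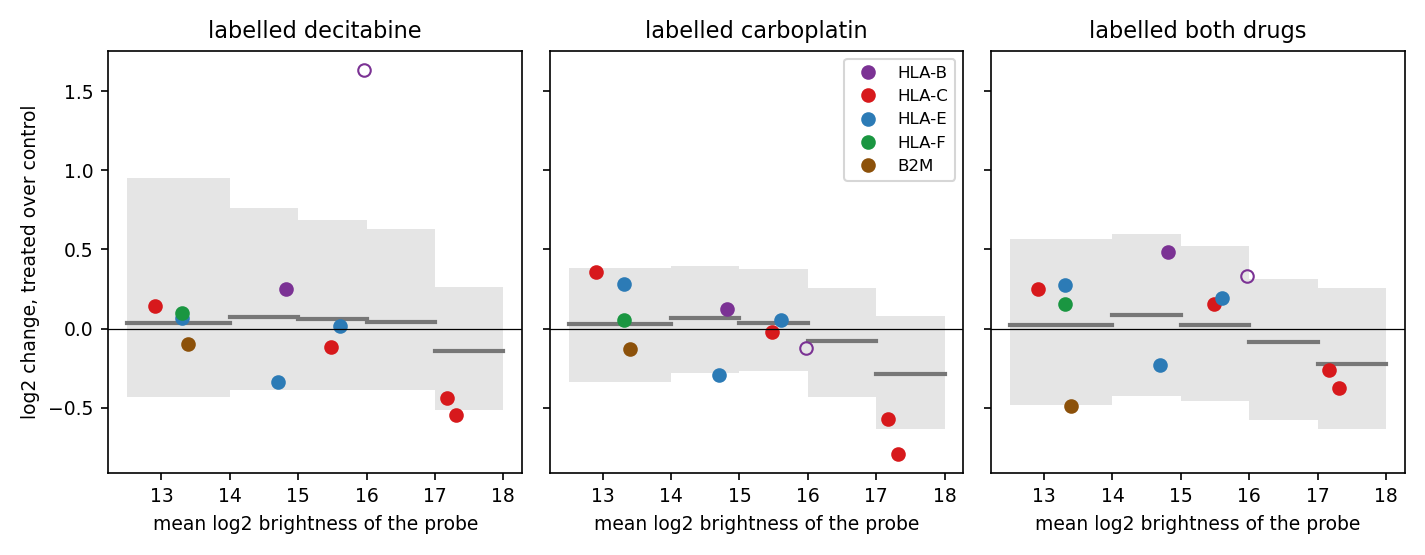
Log2 change (y axis) against mean log2 brightness (x axis) of the HLA probes and the coding B2M probe on the 3 arrays; grey lines are the median of all other probes of that brightness, and grey bars span them with 10 % cut at either end, and the open circle is the HLA-B probe in column 6. The 2 HLA-C probes above 17 lie lowest on the 2 single-drug arrays and the B2M probe, at -0.49, on the combination array, and the grey medians above 17 are -0.14, -0.29 and -0.23.

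HLA-E, a nonclassical heavy chain that shows leader peptides of other class I chains to natural killer cells, was measured by 3 probes. Its brightest probe, A_24_P326082 (chr6:30459360-30459419, plus strand), gave 0.01, 0.05 and 0.19 on the decitabine-labelled, carboplatin-labelled and combination arrays. A_23_P30848 (chr6:30458067-30458126) gave 0.07, 0.28 and 0.27. A_32_P460973 (chr6:30460729-30460788) gave -0.34, -0.29 and -0.23, so that the 3 probes of HLA-E do not share a direction and none reached 1.5-fold. With median centring the brightest probe gave -0.68, -0.60 and -0.46, past 1.5-fold down on both single-drug arrays. HLA-F, also nonclassical, gave 0.10, 0.06 and 0.16 by its single probe. All 3 values are above 0, but below it with median centring (-0.48, -0.47 and -0.34), and at 1.11-fold or less the treated HLA-F levels of 13.34 to 13.40 stand close to the control levels of 13.19 to 13.30.

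B2M, the light chain that every class I molecule needs, was lowest on the combination array by its coding probe. The median over both its probes was highest there, through a dim further probe described below. Its coding probe A_23_P37441 (chr15:45007773-45007832, plus strand) has 10 spots, 9 of them outside the edge columns. Over these 9 the mean log2 change was -0.25 ± 0.041 (SD over spots) on the decitabine-labelled array, -0.12 ± 0.060 on the carboplatin-labelled array and -0.50 ± 0.036 on the combination array. The spots lay from -0.55 to -0.44 on the combination array and from -0.31 to -0.18 on the decitabine-labelled array. Both ranges are of repeated spots of 1 array, not of separate cultures, and neither set reached 1.5-fold. With median centring B2M was past it on all 3 arrays, at -0.68, -0.66 and -0.99. In the authors' value table B2M was so on the combination array, at -0.59. The spot in column 8 shows the edge directly. On the decitabine-labelled array its control signal was 6426 units, where the other 9 spots read 14750 to 25346, and its log2 change was 1.25. On the other arrays the same spot gave -0.18 and -0.46, close to the other spots.

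A further probe under the name B2M, A_24_P740662 (chr15:45007310-45007369), carries the accession AK022379 and lies 404 bases before the coding probe. It was dim, with treated signals of 194, 249 and 391 units over a local background of 52 to 54. Its log2 changes were -0.53, -0.14 and 0.44, so that on the combination array it stood above 0 and the coding probe below. Under the median over both probes, B2M came to -0.31, -0.14 and -0.03.

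**Figure D4:**
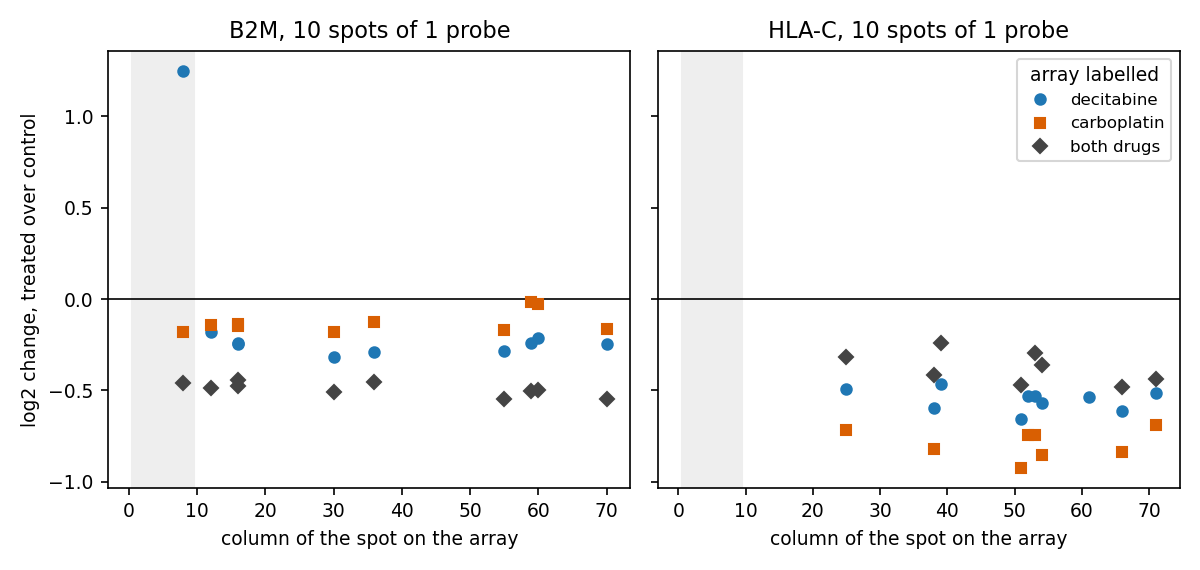
Log2 change (y axis) of each of the 10 spots of 1 B2M probe and 1 HLA-C probe by the column of the spot (x axis) on the 3 arrays; the grey band marks columns 1 to 9, and outlier spots are left out. The B2M spot in column 8 stands at 1.25 on the decitabine-labelled array, and all other B2M spots lie between -0.55 and -0.02.

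PSMB8 and TAP2 stayed within 1.5-fold in the processing used here. PSMB8, by a probe split over an intron (chr6:32810023-32810490, minus strand), gave 0.08, 0.17 and 0.06 on the decitabine-labelled, carboplatin-labelled and combination arrays. TAP2, the partner of TAP1 in the pump, was dim, with treated signals of 113, 108 and 100.0 units at its brighter probe A_23_P368067 (chr6:32789804-32789863, minus strand) over a local background of 51 to 58.5. This probe gave -0.37, -0.43 and -0.48. From the scanner log ratio it was past 1.5-fold down on all 3 arrays, at -0.60, -0.72 and -0.88. From the processed signals it was so on the carboplatin-labelled array (-0.69) and the combination array (-0.84), and with an offset of 16 on the combination array (-0.62). A_23_P214444 (chr6:32795667-32795726) gave -0.18, 0.09 and 0.09. TAP2 thus did not rise with TAP1 at either probe, and signals this near background understate a change. The accessions of the TAP2 probes, NM_018833 and NM_000544, are of different transcripts.

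The differences between arrays carry no fixed dye preference, since it cancels. Both drugs minus carboplatin reached 1.5-fold in 1 of 9 genes, TAP1 (1.06), upward, where 4.21 % of all genes did, and in none downward, where 3.42 % did. Below it came HLA-B with 0.46, HLA-C with 0.41, B2M with -0.36 and PSMB9 with -0.52, and by the median over its probes B2M came to 0.11. Decitabine minus carboplatin was 0.87 for TAP1 and 1.76 for HLA-B, the 2 genes of 9 past 1.5-fold upward (9.47 % of all genes, and 4.34 % downward). Without the edge columns it was 0.88 for TAP1 and 0.14 for HLA-B, with 3.7 % of all genes up and 4.47 % down. Both drugs minus decitabine passed 1.5-fold in HLA-B alone, at -1.30 (6.64 % of all genes down, 1.72 % up), and in no member without the edge columns, where HLA-B came to 0.23 (0.321 % down, 1.82 % up). For TAP1 this last difference was 0.19, so that the decitabine-labelled and combination arrays stood close together. The comparisons share the arrays they subtract and are not independent of each other.

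Some other genes of the pathway passed 1.5-fold. They are given without the edge columns, where 5.08, 2.74 and 7.39 % of all genes were up and 4.9, 1.43 and 5.82 % down on the decitabine-labelled, carboplatin-labelled and combination arrays. PSMB10, the third inducible catalytic subunit of the proteasome, rose by 0.98 and 1.16 on the decitabine-labelled and combination arrays, and stood at 0.54 on the carboplatin-labelled array. It was the 1 of 4 partners of the inducible proteasome to do so, and PSME1, PSME2 and POMP lay between -0.08 and 0.19. None of 13 constitutive core subunits reached 1.5-fold on any array, with medians of 0.26, 0.09 and 0.18. PSMB4 reached 1.75 on the decitabine-labelled array, but its probe lies in the edge columns. Of 5 cytosolic peptidases none reached 1.5-fold, and THOP1, which trims and destroys class I peptides, was highest at 0.57 on the combination array.

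In the endoplasmic reticulum, TAPBP, the bridge between TAP1 and the empty heavy chain, fell by 1.02 and 0.74 on the decitabine-labelled and combination arrays and stood at -0.35 on the carboplatin-labelled array. On the combination array CALR, a chaperone of the loading complex, was up at 0.78 and the trimming peptidase ERAP2 at 0.65, so that of 7 loading and trimming genes 2 were up and 1 down there. On the decitabine-labelled array none of the 7 was up and 1 was down, and on the carboplatin-labelled array none was called. TAP1 and TAPBP thus moved in opposite directions on the same 2 arrays.

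**Figure D5:**
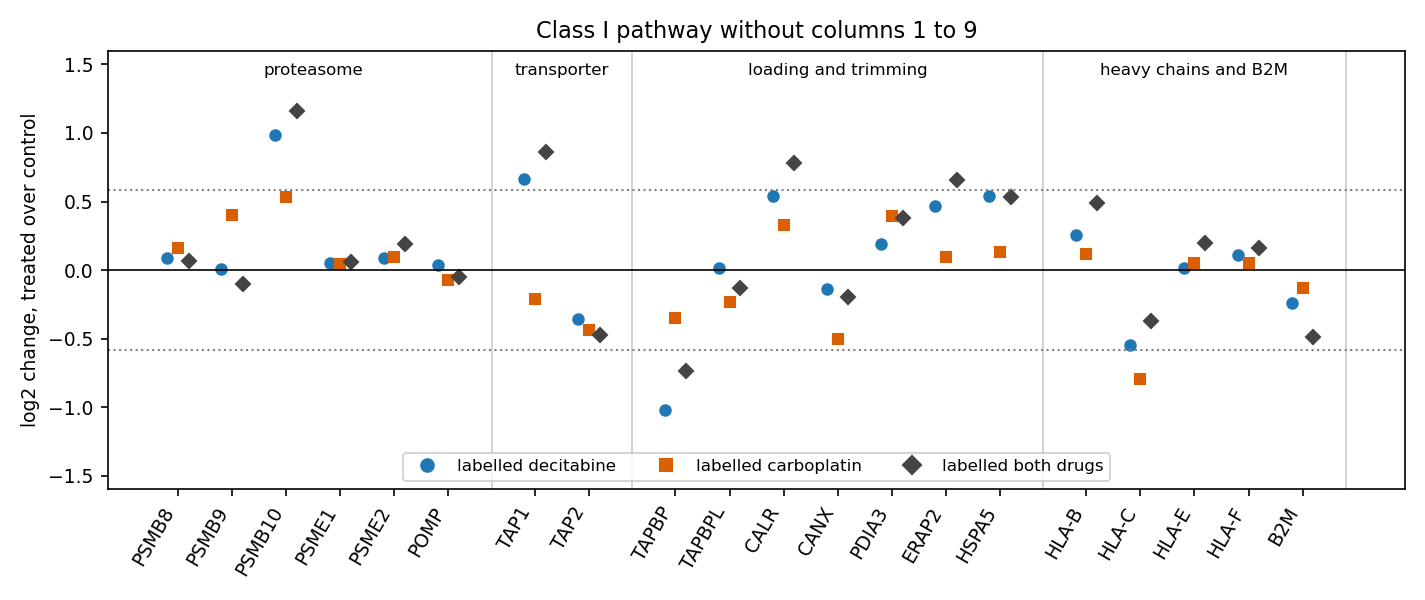
Log2 change (y axis) of class I pathway genes, fitted without columns 1 to 9, on the decitabine-labelled (circles), carboplatin-labelled (squares) and combination (diamonds) arrays, in order of their step in the pathway; dotted lines mark 1.5-fold. PSMB10 and TAP1 lie above the upper line and TAPBP below the lower line on the decitabine-labelled and combination arrays.

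The regulators of class I genes showed no common direction. Of 16 transcription factors, 7 have a spot in the edge columns, and with all columns 5 of the 16 were up on the decitabine-labelled array. Without these columns none of 14 was up there and 1 was down, RFXAP, a subunit of the RFX complex, at -0.90. On the combination array RFXAP was at -1.05, CREB1 at -0.68 and the CCAAT-binding subunit NFYB at -0.67, and IRF1, the interferon-induced activator, was up at 0.65. CREB1 and NFYB stood at -0.47 and -0.49 on the decitabine-labelled array, under the threshold, and IRF1 at 0.56. NLRC5, the class I transactivator, stood at -0.08, 0.30 and 0.23 without the edge columns and at 0.67, 0.28 and 0.20 with them. Of 6 genes of interferon gamma receptor signalling, IFNGR1 was at -0.60 on the carboplatin-labelled array, and no other was called without the edge columns.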

How the data were processed

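RNA of treated and control YB5 cells was hybridised to 3 Agilent arrays. The authors deposited scanner files with the mean intensity and local background of each spot in both channels, the scanner's log10 ratio, and a table of loess-normalized log2 ratios. The submitters' processing notes name Feature Extraction 8.5.1.1, limma and R 3.0.2, and the file headers Feature Extraction 9.5.3.1. The labels give carboplatin at 20 μM, and the study's text also 25 μM. Intensities were background-corrected (normexp, offset 50), loess-normalized within arrays in limma 3.58.1 (R 4.3.3), and scaled between arrays (Aquantile) for levels. Known fold changes put into the treated signal of brighter probes outside the edge columns were recovered. Dim probes, the edge columns and the curve over brightness were not examined in this way. Control and outlier spots were left out, repeated spots averaged, and a gene represented by its brightest probe. Of 41000 probes, 29381 were paired with a RefSeq gene by accession or name. Genes up or down were counted at 1.5-fold. All 9 members were named, and of each list at most 4 genes past 1.5-fold. The members and lists were chosen with earlier results of these data known. The median signal was 163 to 167 units (treated) and 282 to 315 (control), and 65.8 to 70.3 % of spots were well above background.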

Additional observations from a re-analysis of the deposited data

How the results depend on the processing

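Alternatives were processed signals, the scanner log ratio, median signals without background subtraction, median centring, a normexp offset of 16, outlier spots kept, no edge columns, the authors' value table and the median over a gene's probes, and for counts and medians also a filter on genes well above background and, for counts, a 2-fold threshold. Counts are of the 9 genes, and the cause of a move was not tested unless the setting itself gives it. Median centring, which applies no curve over brightness, gave 1, 0 and 0 genes up and 3, 5 and 2 down on the decitabine-labelled, carboplatin-labelled and combination arrays (otherwise 2, 0 and 1 up, 0, 1 and 0 down), with medians of -0.50, -0.60 and -0.46. At 2-fold 1 gene was up on the decitabine-labelled array, 0 on the combination array, and 0 down on the carboplatin-labelled array. Without the edge columns 1 was up on the decitabine-labelled array and the median on the carboplatin-labelled array was 0.048. In the authors' deposited values 1 was up and 1 down on the decitabine-labelled array, and 2 up and 1 down on the combination array, median -0.06. By the scanner log ratio 1, 2 and 1 were down, with a median of -0.038 on the carboplatin-labelled array. Processed signals gave 2 down there and 1 on the combination array, and the offset of 16 gave 1 down on the combination array. The genes down under these 3 settings were TAP2 and, on the carboplatin-labelled array, also HLA-C. Taking the median over probes gave 0 down on the carboplatin-labelled array, median -0.0016. The difference of HLA-B between both drugs and decitabine, -1.30, turned to 0.23 without the edge columns and to 0.13 in the authors' table. HLA-B on the decitabine-labelled array ranged from 0.26 to 1.63, HLA-C on the carboplatin-labelled array from -1.55 to -0.30, and TAP1 from 0.04 to 0.68 on the decitabine-labelled array and 0.30 to 0.86 on the combination array. No replicate could be left out, and no paired analysis was possible because each treatment has 1 array. Signal over background limits TAP2 most.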

Other observations

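Other heavy chains outside the 9 genes are given without the edge columns. Of 11, 9 were well above background and none was up on any array. Down were 2 on the decitabine-labelled array (4.9 % of all genes), 0 on the carboplatin-labelled array (1.43 %) and 1 on the combination array (5.82 %). HFE, the iron-sensing relative of class I, fell by 0.65 on the decitabine-labelled array and by 0.87 on the combination array. FCGRT, the neonatal Fc receptor, fell by 0.67 on the decitabine-labelled array and stood at -0.53 on the combination array. Of 4 other natural killer ligands measured, PVR was up by 0.70 on the decitabine-labelled array and by 0.82 on the combination array, and stood at 0.48 on the carboplatin-labelled array.

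Of 12 class II genes, 6 were well above background on the decitabine-labelled array, and CD74 and HLA-DRA were not well above it in either channel of any array. HLA-DMA, which loads class II peptides, was up at 0.87 on the combination array. HLA-DOB fell by 0.63 and 0.67 on the 2 single-drug arrays and stood at -0.52 on the combination array. HLA-DMB was up at 0.63 on the carboplatin-labelled array, with the control channel not well above background. HLA-DQB1 read 1.02 on the decitabine-labelled array with the edge columns and -0.06 without.

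TAP1 was also set against all genes, a choice made after its values were seen. The genes nearest to its log2 changes over the 3 arrays, among 12944 genes, were SLC16A6 (0.63, -0.23 and 0.79), PRKAB2 (0.68, -0.13 and 0.83), COL27A1, HEMK1 and RNF39, at Euclidean distances of 0.075 to 0.15. None of the 5 has a probe in the edge columns.

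Of 9 colon epithelium markers, 8 were measured without the edge columns. On the decitabine-labelled array 2 were up (5.08 % of all genes) and 3 down (4.9 %). On the carboplatin-labelled array 2 were up (2.74 %) and 0 down (1.43 %). On the combination array 3 were up (7.39 %) and 2 down (5.82 %). The keratins KRT8 and KRT18 rose on the decitabine-labelled array (0.73 and 0.83 without the edge columns) and on the combination array (0.79 and 1.15). The adhesion protein CDH1 fell by 0.88 and 0.86 on these 2 arrays. VIL1, of the brush border, fell by 0.86 on the decitabine-labelled array and rose by 1.87 on the carboplatin-labelled array. The fibroblast markers DCN and LUM read 0.59 and 0.60 on the carboplatin-labelled array without the edge columns, with the control channel not well above background, and none of 3 endothelial markers was called.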
